A study of Mus musculus with 55 samples.

Results

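Expression in the cerebellum was compared between mouse pups carrying the human Q192 form of paraoxonase 1 (PON1) and pups labelled as Pon1 knockouts (KO), both given only the vehicle. The comparison used 8 of the 55 arrays of the series, 4 titled Q192 and 4 titled KO, and every gene with 1 gene symbol that passed a filter on low levels, 14950 of 19938 genes. All pups were C57Bl/6, received daily subcutaneous injections of dimethyl sulfoxide from postnatal day 4 to postnatal day 21, and were sampled at postnatal day 22. The KO pups had the genotype Pon1-/-, and the Q192 pups the genotype tgHuPON1Q192. The labels give neither the promoter of the transgene nor the state of the mouse Pon1 gene in the transgenic pups. Arrays of 2 other vehicle genotypes, tgHuPON1R192 (4 arrays) and wild type (WT, 6 arrays), and Q192 and KO pups that received the insecticide metabolite named in the series title as chlorpyrifos oxon (CPO) at 0.35 or 0.5 mg/kg/day are used below for comparison. The labels' injection protocol calls the same compound chlorpyrifos.

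PON1 is an enzyme of blood plasma, made in the liver and carried on high-density lipoprotein, that hydrolyses the oxon metabolites of several organophosphate insecticides. The Q192 and R192 forms of the human enzyme differ in a single amino acid, glutamine or arginine, and the R192 form hydrolyses chlorpyrifos oxon faster. Oxons inhibit acetylcholinesterase and other serine hydrolases, and the cerebellum is still building its granule cell circuits in the weeks after birth.

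The arrays labelled KO did not have a low Pon1 signal. Pon1 levels, in log2 units as for all levels below, were 9.93, 10.12, 10.17 and 10.01 in the 4 Q192 arrays and 10.35, 9.95, 10.03 and 10.29 in the 4 arrays labelled KO. The groups overlapped and differed by -0.10 ± 0.14 (SE; limma, adjusted p = 0.705), while the 6 WT vehicle arrays had a mean of 5.21 ± 0.24 (SD). The R192 vehicle arrays had a mean of 10.15 ± 0.11 (SD), so WT stood apart from Q192, R192 and labelled KO alike. The labels do not say which part of Pon1 is altered in the KO pups or where the Pon1 probes lie. This signal therefore does not check the KO label. Pon2 and Pon3, the other paraoxonases, had differences of -0.10 ± 0.098 (SE) and -0.28 ± 0.16 (SE) and did not pass. Markers of cerebellar neurons were present in all 8 arrays, with Gabra6 of granule cells at 12.53 to 13.06, Calb1 of Purkinje cells at 11.75 to 12.46 and Neurod1 at 11.42 to 12.15.

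Some of the arrays stood apart from the rest of their group. On the first principal component of the 8 arrays, which held 59.6% of the variance, KO array 1 (arrays are numbered as the replicates in their titles) lay at 35.8 and the other 7 between -15.98 and 8.71, and the mean level of choroid plexus markers was 8.51 in that array against 7.62 to 7.91 in the others. KO array 4 was the one with a high level of Xist (11.26 against 5.31 to 5.86) and a low level of the Y-linked Eif2s3y (4.15 against at least 10.31). A KO array contrasted only at 0.35 mg/kg/day, replicate 5, carried the same number in its label as 2 R192 arrays. Counts of genes that passed between Q192 and labelled KO are given with and without these arrays. Counts of chromosome neighbours, of genes without overlap and of list members under an unadjusted p are given with all arrays only. Medians of gene lists were recomputed without each of the 8 vehicle arrays in turn. Values or their range are given where that moved a median by over 1.5 times. The labels do not say that each array is a separate pup, and 2 arrays in each vehicle group share a number. The p-values therefore measure spread between arrays. In the main fit that spread is pooled over all arrays of the series and does not come from these 8 vehicle arrays alone.

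In vehicle, 15 of 14950 genes (0.100%) differed between Q192 and the arrays labelled KO at a limma adjusted p under 0.05, 8 of them higher in Q192 (0.0535%) and 7 lower (0.0468%). The higher genes were G530011O06Rik, Plekhd1, Snord53, Entpd4, Cplane2, Hspa4l, L3hypdh and Arhgef19, and the lower genes Mrpl20, Mid1, Gabra2, Marchf1, Pigf, Wdfy1 and Cnbd2. The 4 Q192 and 4 KO levels did not overlap in 13 of the 15, against 531 of all genes (3.55%), 356 higher (2.38%) and 175 lower (1.17%). The 15 were picked on these same arrays, so their lack of overlap was largely fixed beforehand and gives no support. An unadjusted p under 0.05 was reached by 1764 genes (11.8%), 1111 higher (7.43%) and 653 lower (4.37%). Over all genes the median log2 difference was 0.03 and the central 90% lay between -0.23 and 0.26. In these bulk samples a lower level can mean fewer cells that express a gene or less RNA in each cell, which cannot be told apart.

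**Figure D1:**
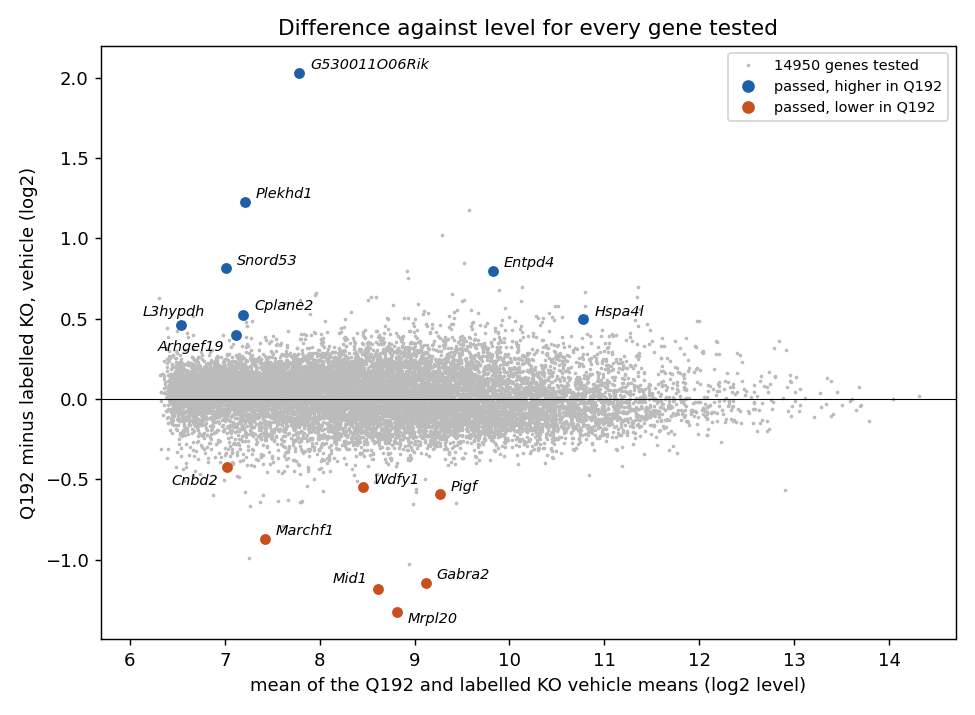
The log2 difference of Q192 minus labelled KO in vehicle (vertical axis) against the mean log2 level of both groups (horizontal axis), 1 point for each of the 14950 genes tested. The 8 genes that passed higher in Q192 are blue and the 7 that passed lower are orange; G530011O06Rik at 2.03 and Mrpl20 at -1.33 are the extremes among all genes tested.

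The stretches before the transcription start of 6 of these genes are shown because 4 of them, Gabra2, Mrpl20, Plekhd1 and G530011O06Rik, had the smallest adjusted p, and the other two, Cplane2 and Arhgef19, are neighbours on chromosome 4 that both rose. Each is the 250 bases upstream of a RefSeq start in the mouse build GRCm38.p6, read 5′ to 3′ on the gene's strand, and capitals mark CCAAT (or its reverse ATTGG) and GGGCGG (or CCGCCC). The same search included TATAAA (or TTTATA). Gabra2 lies at chr5:71095850-71096099 (minus strand), Mrpl20 at chr4:155802628-155802877 (plus), Plekhd1 at chr12:80692351-80692600 (plus), G530011O06Rik at chrX:169978918-169979167 (minus), Cplane2 at chr4:141213706-141213955 (plus) and Arhgef19 at chr4:141244838-141245087 (plus).
Gabra2: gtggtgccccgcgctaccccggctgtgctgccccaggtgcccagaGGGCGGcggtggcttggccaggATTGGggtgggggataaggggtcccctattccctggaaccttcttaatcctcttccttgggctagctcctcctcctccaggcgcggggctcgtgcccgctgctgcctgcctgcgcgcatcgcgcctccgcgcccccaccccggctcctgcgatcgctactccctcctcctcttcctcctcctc
Mrpl20: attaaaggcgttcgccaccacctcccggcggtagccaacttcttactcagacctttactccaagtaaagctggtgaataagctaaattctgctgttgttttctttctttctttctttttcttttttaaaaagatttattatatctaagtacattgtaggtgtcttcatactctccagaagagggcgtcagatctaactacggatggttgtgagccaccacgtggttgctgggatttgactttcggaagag
Plekhd1: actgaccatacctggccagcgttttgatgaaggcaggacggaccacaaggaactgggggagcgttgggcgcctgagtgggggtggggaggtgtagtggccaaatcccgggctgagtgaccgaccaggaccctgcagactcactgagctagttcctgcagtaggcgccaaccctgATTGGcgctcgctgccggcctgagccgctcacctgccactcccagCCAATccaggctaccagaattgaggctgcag
G530011O06Rik: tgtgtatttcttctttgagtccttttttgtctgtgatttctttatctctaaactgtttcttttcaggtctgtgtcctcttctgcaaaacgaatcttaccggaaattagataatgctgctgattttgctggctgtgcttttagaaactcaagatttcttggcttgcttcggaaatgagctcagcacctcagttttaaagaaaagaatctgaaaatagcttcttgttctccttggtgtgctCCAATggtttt
Cplane2: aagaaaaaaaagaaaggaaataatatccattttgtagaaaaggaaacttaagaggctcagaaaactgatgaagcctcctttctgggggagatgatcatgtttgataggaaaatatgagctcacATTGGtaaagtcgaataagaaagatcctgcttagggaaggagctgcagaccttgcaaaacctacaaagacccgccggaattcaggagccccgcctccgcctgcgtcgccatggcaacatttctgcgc
Arhgef19: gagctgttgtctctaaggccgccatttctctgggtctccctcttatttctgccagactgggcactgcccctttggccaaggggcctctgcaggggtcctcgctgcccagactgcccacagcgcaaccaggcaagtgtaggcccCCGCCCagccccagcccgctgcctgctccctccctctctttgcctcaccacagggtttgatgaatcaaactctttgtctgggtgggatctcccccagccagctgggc
Gabra2 held 1 match to CCAAT and 1 to GGGCGG, Plekhd1 held 2 to CCAAT, G530011O06Rik and Cplane2 1 to CCAAT each, Arhgef19 1 to GGGCGG, and Mrpl20 none. TATAAA was in none of the 6. Of 32851 mouse promoters of the same length in the table, 33.8% held CCAAT, 32.7% GGGCGG and 12.4% TATAAA. These matches are therefore descriptions of common letters, and whether any is a bound site was not tested. G530011O06Rik has a further entry on the Y chromosome in the table. Of the 15 genes, 11 had an entry.

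Gabra2, which encodes the alpha 2 subunit of the GABA-A receptor, the main inhibitory receptor of the brain, fell in Q192. Its levels were 8.19, 8.62, 8.86 and 8.52 in the Q192 arrays and 9.69, 9.60, 9.58 and 9.87 in the arrays labelled KO. Every Q192 array lay below every KO array by at least 0.73. Gabra2 differed by -1.14 ± 0.15 (SE; limma, adjusted p = 1.24e-05), or 2.21-fold lower, with a 95% interval of -1.44 to -0.84. Of the 18 genes for GABA synthesis and receptors that were tested, Gabra2 was the only one to pass; 10 were higher and 8 lower, with a median of 0.06, which ran from -0.01 (without KO array 1) to 0.12 (without Q192 array 3) and was also moved by over 1.5 times without KO array 2 (0.02), KO array 4 (0.03) or Q192 array 4 (0.03). The genes beside Gabra2 on chromosome 5 encode other GABA-A subunits, and Gabrg1, Gabra4 and Gabrb1 had differences of -0.15 ± 0.19, -0.33 ± 0.20 and -0.25 ± 0.11 (SE) and did not pass.

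Mrpl20, a protein of the large subunit of the mitochondrial ribosome, had the largest fall. Its levels were 8.12, 8.14, 8.17 and 8.20 in Q192 and 9.40, 9.47, 9.47 and 9.57 in the arrays labelled KO. Within each group the arrays were close together and a gap of 1.20 separated them. The difference was -1.33 ± 0.18 (SE; limma, adjusted p = 1.51e-05), or 2.51-fold lower. Among the 71 tested subunits of the respiratory chain, whose complexes also hold proteins made by that ribosome, none passed; 25 were higher and 46 lower, with a median of -0.05.

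G530011O06Rik, a RIKEN transcript at the end of the X chromosome, had the largest rise of all genes. Levels were 8.59, 8.82, 8.87 and 8.94 in Q192 and 6.99, 6.65, 6.57 and 6.87 in the arrays labelled KO. The groups were 1.60 apart. The difference was 2.03 ± 0.32 (SE; limma, adjusted p = 0.000207), or 4.08-fold higher. Mid1, the neighbouring tested gene, encodes a ubiquitin ligase that binds microtubules, and it fell. Its levels were 8.10, 7.91, 7.99 and 8.09 in Q192 and 9.11, 9.21, 9.18 and 9.31 in the arrays labelled KO, with no overlap, and the difference was -1.18 ± 0.22 (SE; limma, adjusted p = 0.00532). KO array 4, the one of high Xist, was inside the range of the other KO arrays for G530011O06Rik and highest of the 4 for Mid1, and both genes passed when it was left out.

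Plekhd1, a protein with a pleckstrin homology domain, rose 2.34-fold. Levels were 8.11, 7.69, 7.65 and 7.86 in Q192 and 6.80, 6.62, 6.42 and 6.55 in the arrays labelled KO. The lowest Q192 array was 0.85 above the highest KO array, and the difference was 1.23 ± 0.17 (SE; limma, adjusted p = 1.51e-05). Entpd4, a nucleoside diphosphatase of the Golgi and lysosomal membranes, had levels of 10.41, 10.25, 9.86 and 10.38 in Q192 and of 9.30, 9.52, 9.50 and 9.38 in the arrays labelled KO. It rose by 0.80 ± 0.14 (SE; limma, adjusted p = 0.00443), with Q192 array 3 nearest to the KO arrays and still above them.

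The other 5 genes that rose had differences between 0.40 and 0.81. Hspa4l, a chaperone of the HSP110 family, was at 10.90, 11.02, 11.13 and 11.04 in Q192 and 10.73, 10.47, 10.49 and 10.44 in the arrays labelled KO, a difference of 0.50 ± 0.094 (SE; limma, adjusted p = 0.00545). KO array 1 was the highest of its group for Hspa4l and still below every Q192 array. Arhgef19 lay between 7.25 and 7.37 in Q192 and between 6.71 and 7.02 in the arrays labelled KO, and rose by 0.40 ± 0.076 (SE; limma, adjusted p = 0.00545). Cplane2, a small GTPase needed to build cilia, lay between 7.41 and 7.49 in Q192 and between 6.84 and 7.01 in the arrays labelled KO, and rose by 0.52 ± 0.12 (SE; limma, adjusted p = 0.0498). L3hypdh, which dehydrates trans-3-hydroxyproline, rose by 0.46 ± 0.10 (SE; limma, adjusted p = 0.0351). Snord53, a small nucleolar RNA of the kind that guides methylation of ribosomal RNA, rose by 0.81 ± 0.18 (SE; limma, adjusted p = 0.0351). None of these 5 genes had overlapping groups.

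Marchf1, a membrane ubiquitin ligase known for removing MHC class II molecules from the cell surface, had levels of 6.85, 7.22, 6.91 and 6.98 in Q192 and of 7.71, 7.73, 7.76 and 8.21 in the arrays labelled KO. KO array 4 was the highest and the groups did not overlap, and Marchf1 differed by -0.87 ± 0.19 (SE; limma, adjusted p = 0.0301). Cnbd2, which carries a cyclic nucleotide-binding domain, was at 6.71 to 6.92 in Q192 and 7.10 to 7.41 in the arrays labelled KO, a difference of -0.42 ± 0.078 (SE; limma, adjusted p = 0.00532). Both remaining genes had overlapping groups. Wdfy1, an adaptor of endosomal Toll-like receptor signalling, was at 7.98 to 8.16 in Q192 arrays 1 to 3, 8.58 in Q192 array 4 and 8.79, 8.73, 8.57 and 8.83 in the arrays labelled KO, so that Q192 array 4 lay just above the lowest KO array. Its difference was -0.55 ± 0.10 (SE; limma, adjusted p = 0.00545). Pigf, which acts in the assembly of glycosylphosphatidylinositol anchors, was at 8.74, 9.11, 9.28 and 8.77 in Q192 and 9.81, 9.27, 9.45 and 9.69 in the arrays labelled KO, a difference of -0.59 ± 0.13 (SE; limma, adjusted p = 0.0288).

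**Figure D2:**
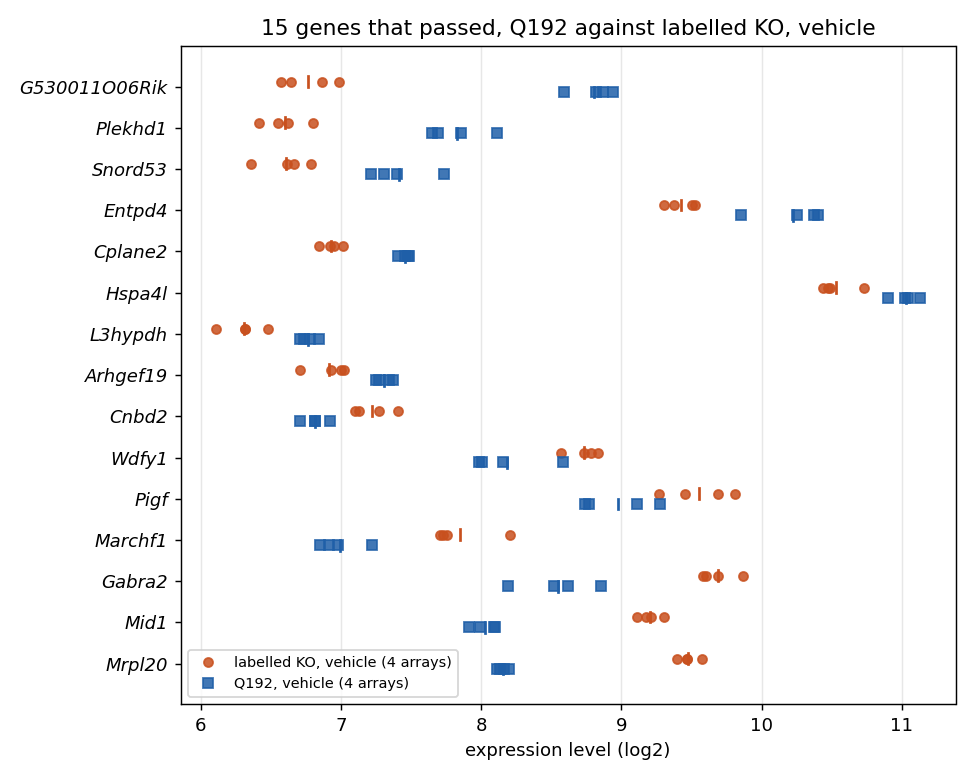
Log2 levels (horizontal axis) of the 15 genes that passed, 1 row a gene, in the 4 Q192 vehicle arrays (blue squares) and the 4 vehicle arrays labelled KO (orange circles), with a vertical tick at each group mean. The groups are apart in 13 genes and overlap in Wdfy1 and Pigf; the widest gap is that of G530011O06Rik, 1.60.

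Leaving out arrays changed which of the 15 passed but turned no direction. Gabra2, Mrpl20, Plekhd1, G530011O06Rik, Entpd4 and Mid1 passed without each of the 8 arrays in turn. Without KO array 1, 8 genes passed, these 6 with Cnbd2 and Hspa4l, and 261 genes had an unadjusted p under 0.05 in place of 1764. Without KO array 4, 7 genes passed, the 6 with Arhgef19, and without Q192 array 3, 9 genes passed, 8 of them among the 15. Without KO arrays 1 and 4 together, a check added after the data were seen, the 4 genes that passed were Gabra2, Mrpl20, Plekhd1 and G530011O06Rik. Cplane2 passed in none of the 8 fits that left out 1 array, L3hypdh in 1, Snord53 in 2 and Marchf1 in 3, so these calls needed nearly all arrays. Each vehicle group has 2 arrays on each of 2 array dates. On the first date alone Gabra2 passed, and on the second Mrpl20, Plekhd1, G530011O06Rik and Hspa4l did. All 15 had the same direction on both dates. All 15 kept an unadjusted p under 0.05 in limma without KO array 1, without KO array 4 and without both. The 15 were picked on these same arrays. Directions kept on 1 date, and directions or unadjusted p-values kept without an array, were therefore largely fixed beforehand and give no support.

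The same genotype difference was then read in pups given CPO, in arrays that the vehicle comparison does not contrast. Their label numbers do not recur in the vehicle groups. These arrays do enter the shared spread, date term and correlation of the fit, so the vehicle and CPO p-values are not independent. At 0.35 mg/kg/day (5 arrays a group) 10 genes passed between Q192 and labelled KO (0.0669%), and at 0.5 mg/kg/day (5 Q192 and 3 KO arrays) 15 passed (0.100%). All 15 vehicle genes had the same direction at both doses, against 51.5% and 32.9% of all genes. Their unadjusted p was under 0.05 for 14 of the 15 at 0.35 mg/kg/day, where 5.93% of all genes were, and for 12 of the 15 at 0.5 mg/kg/day, where 21.7% were. Gabra2, Plekhd1, G530011O06Rik, Hspa4l and Wdfy1 passed at both doses, and Mrpl20, Mid1 and Snord53 at 0.5 mg/kg/day only. Those that passed in vehicle and at 0.35 mg/kg/day, 5 genes, were 33.3% of the vehicle genes and 5 of the 10 genes at that dose, and the 8 shared with 0.5 mg/kg/day were 53.3% of each list.

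Gabra2 differed by -1.08 ± 0.13 (SE; limma, adjusted p = 3.51e-06) at 0.35 mg/kg/day and by -0.74 ± 0.16 (SE; limma, adjusted p = 0.0275) at 0.5 mg/kg/day. Its CPO levels were 8.34 to 9.02 in Q192 and 9.28 to 9.82 in the arrays labelled KO, so that no Q192 array reached a KO array at either dose. G530011O06Rik differed by 1.70 ± 0.28 and 1.60 ± 0.33 (SE; limma, adjusted p = 0.00195 and 0.0237). Mrpl20 differed by -0.72 ± 0.16 (SE; limma, adjusted p = 0.055) and by -1.18 ± 0.19 (SE; limma, adjusted p = 0.000310). In the arrays labelled KO at 0.35 mg/kg/day Mrpl20 was at 9.52, 9.42, 9.36, 9.50 and, in replicate 5, 7.88, which is below every Q192 array of that dose. Pigf had nearly no difference at 0.35 mg/kg/day, -0.0033 ± 0.11 (SE), and -0.12 ± 0.13 (SE) at 0.5 mg/kg/day, and Cnbd2 had -0.19 ± 0.070 and -0.071 ± 0.082 (SE). Over the 15 genes the median ratio of the CPO difference to the vehicle difference was 0.695 at 0.35 mg/kg/day and 0.787 at 0.5 mg/kg/day. The genes were picked by their vehicle difference, which alone favours smaller differences in other arrays, so these ratios do not measure an effect of CPO. The ratio at 0.35 mg/kg/day includes replicate 5 of KO.

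Replicate 5 of the arrays labelled KO at 0.35 mg/kg/day was nearer to the Q192 vehicle mean than to the KO vehicle mean in 9 of the 15 genes. In the other 7 KO arrays of the CPO groups this count was 0 to 2, and in the 10 Q192 arrays 10 to 15. It was 10 or 11 in the R192 vehicle arrays and 4 or 5 in the WT vehicle arrays. The count therefore does not single out Q192 over R192, and the genotype of replicate 5 was not tested. Without that array 9 of the 15 genes passed at 0.35 mg/kg/day instead of 5, and Mrpl20 differed by -1.04 ± 0.11 (SE; limma, adjusted p = 2.67e-08). At 0.5 mg/kg/day, where it enters only the shared estimate of spread, 12 of the 15 passed without it instead of 8. Over all genes, 19 then passed at 0.35 mg/kg/day and 200 at 0.5 mg/kg/day, and 21 in vehicle, all 15 genes among them.

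Whether the genotype difference itself changed with treatment was tested as an interaction. No gene passed at either dose in limma, with 1017 genes (6.80%) and 4231 genes (28.3%) at an unadjusted p under 0.05 for 0.35 and 0.5 mg/kg/day. Among the 15 genes the smallest adjusted p was that of Cnbd2 at 0.5 mg/kg/day, where its difference was 0.35 ± 0.11 (SE; limma, adjusted p = 0.0792) nearer to 0 than in vehicle. The count at 0.5 mg/kg/day rested on single arrays, since 905 genes passed without replicate 5 at 0.35 mg/kg/day, 1652 without KO vehicle array 2, 779 without KO vehicle array 3 and 2 without Q192 vehicle array 3.

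**Figure D3:**
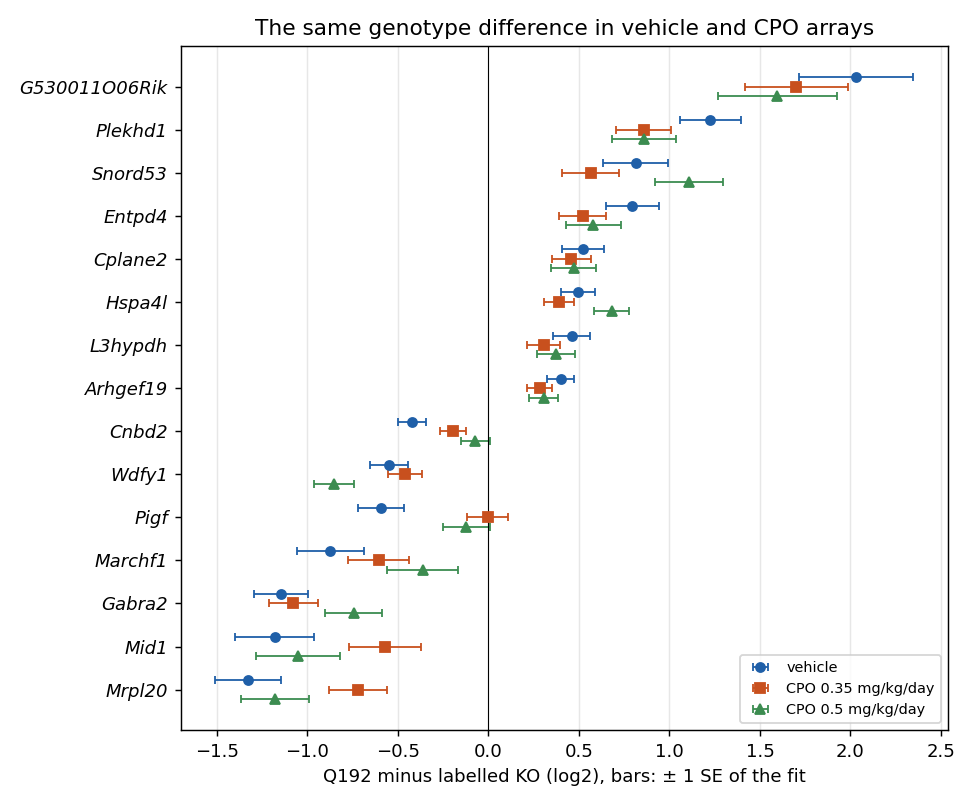
The log2 difference of Q192 minus labelled KO (horizontal axis) for the 15 genes in vehicle (blue circles, 4 and 4 arrays), at CPO 0.35 mg/kg/day (orange squares, 5 and 5 arrays) and at 0.5 mg/kg/day (green triangles, 5 and 3 arrays), with bars of 1 SE of the fit. All 15 keep their side of 0 at both doses, with Pigf at -0.0033 and -0.12 and Cnbd2 at -0.19 and -0.071 nearest to it.

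Against the other vehicle genotypes the 15 genes fell into 3 sets. For Gabra2, Mrpl20, G530011O06Rik, Mid1, Hspa4l and Snord53 the R192 mean was nearer to Q192 and the WT mean nearer to labelled KO. Mrpl20 had means of 8.15 ± 0.036 in Q192, 8.29 ± 0.12 in R192, 9.39 ± 0.19 in WT and 9.48 ± 0.071 in labelled KO (SD, n = 4, 4, 6 and 4). All 4 R192 arrays were nearer to Q192 and none of the 6 WT arrays was. Gabra2 had means of 8.55 ± 0.28, 9.02 ± 0.21, 9.61 ± 0.18 and 9.69 ± 0.13 in the same order, with R192 between the extremes. Snord53 was at 7.41 ± 0.23 in Q192 and 7.49 ± 0.16 in R192, and at 6.44 ± 0.15 in WT and 6.61 ± 0.18 in labelled KO.

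For Plekhd1, Arhgef19, Pigf, L3hypdh and Cplane2 both the R192 and the WT mean were nearer to Q192. The arrays labelled KO overlapped no array of the other 3 genotypes for Plekhd1, Arhgef19 and Cplane2. For L3hypdh they reached 6.48 while the lowest WT array was at 6.32, and for Pigf they started at 9.27 while the R192 arrays ran from 9.12 to 9.32, with 2 of those 4 nearer to Q192. Plekhd1 had means of 7.83 ± 0.21 in Q192, 7.46 ± 0.17 in R192, 7.77 ± 0.35 in WT and 6.60 ± 0.16 in labelled KO (SD). Cplane2 had means of 7.46 ± 0.036, 7.39 ± 0.22, 7.52 ± 0.22 and 6.93 ± 0.069 in the same order. For Entpd4, Cnbd2, Wdfy1 and Marchf1 both means were nearer to labelled KO. The Q192 arrays overlapped none of the other 3 genotypes for Cnbd2 and Marchf1. For Entpd4 the R192 arrays, at 9.55 to 10.19 with a mean of 9.79, overlapped those of Q192 and 1 of the 4 was nearer to Q192, and for Wdfy1 Q192 array 4 overlapped labelled KO. Marchf1 had means of 6.99 ± 0.16 in Q192, 7.97 ± 0.25 in R192, 7.90 ± 0.28 in WT and 7.85 ± 0.24 in labelled KO (SD). Wdfy1 had means of 8.18 ± 0.28, 8.77 ± 0.085, 8.89 ± 0.12 and 8.73 ± 0.12.

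The comparisons of R192 and of WT with labelled KO share its 4 vehicle arrays with the comparison described here, so their values are given side by side only. For Plekhd1 the log2 differences from labelled KO were 1.23 ± 0.17 in Q192, 0.85 ± 0.17 in R192 and 1.18 ± 0.16 in WT (SE; limma, adjusted p = 1.51e-05, 0.0333 and 3.76e-06). For Hspa4l they were 0.50 ± 0.094, 0.53 ± 0.094 and -0.077 ± 0.086 (SE; limma, adjusted p = 0.00545, 0.00726 and 0.627). For Gabra2 they were -1.14 ± 0.15, -0.66 ± 0.15 and -0.080 ± 0.14 (SE; limma, adjusted p = 1.24e-05, 0.0885 and 0.769). Over all genes 4 passed between R192 and labelled KO (0.0268%) and 22 between WT and labelled KO (0.147%).

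**Figure D4:**
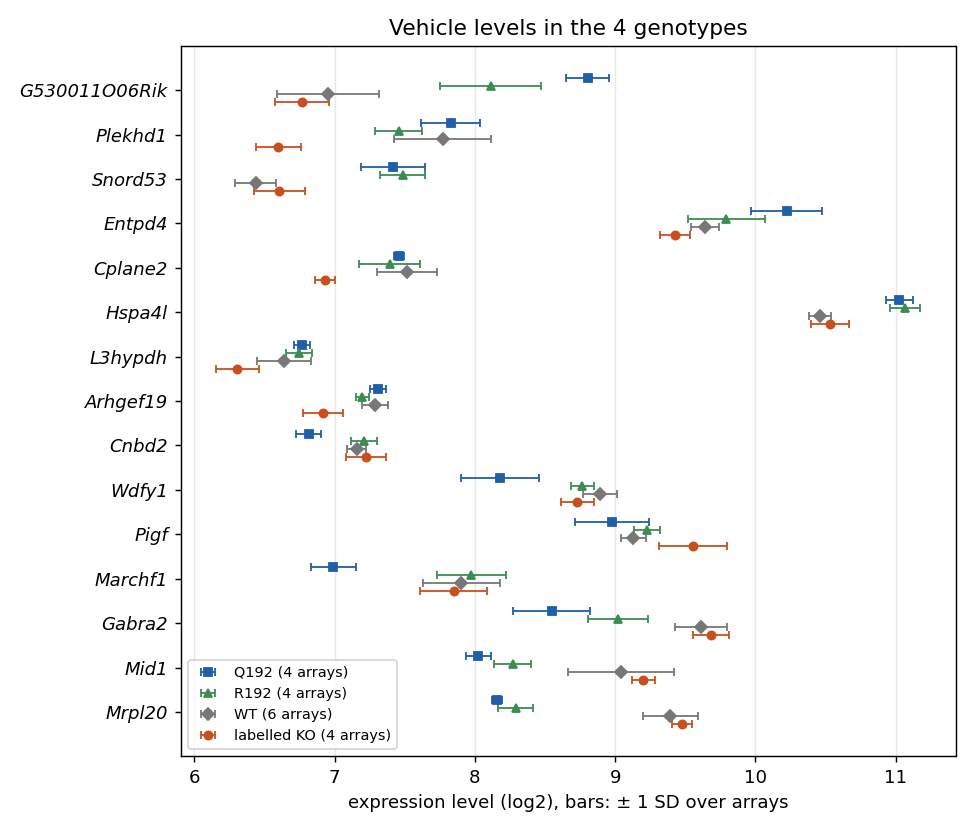
Vehicle log2 levels (horizontal axis) of the 15 genes in Q192 (blue squares, 4 arrays), R192 (green triangles, 4 arrays), WT (grey diamonds, 6 arrays) and labelled KO (orange circles, 4 arrays), as means with bars of 1 SD over arrays. Mrpl20, Hspa4l and Snord53 pair Q192 with R192, Plekhd1 and Cplane2 set the arrays labelled KO apart, and Marchf1 and Cnbd2 set Q192 apart.

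The tested genes on either side of the 15 were read in their order along the chromosome. Cplane2 and Arhgef19 are consecutive among the tested genes of chromosome 4, and of the next tested genes Epha2, Fam131c and Zbtb17 had differences of 0.21 ± 0.077, 0.21 ± 0.088 and 0.21 ± 0.075 (SE), none of which passed. Necap2, on the other side, had 0.39 ± 0.10 (SE; limma, adjusted p = 0.192). Of the 10 tested genes around Cplane2, 5 on each side, 6 had an unadjusted p under 0.05, and all 6 were higher in Q192. Of all genes, 11.8% had such a p and 7.43% were higher with it. The 6 were Arhgef19, itself among the 15, and Crocc, Necap2, Epha2, Fam131c and Zbtb17. The last 5 had smaller differences in the CPO arrays. In that order these were 0.07, 0.20, 0.09, 0.05 and 0.11 at the lower dose. At the higher dose they were 0.01, 0.05, 0.01, -0.08 and -0.03. Arhgef19 had 0.28 and 0.31. Of the 10 genes around Mrpl20, 5 had an unadjusted p under 0.05 in vehicle. Of these, 2 were lower in Q192 like Mrpl20 and 3 higher. Ccnl2, a cyclin next to Mrpl20, had a difference of -0.40 ± 0.12 (SE; limma, adjusted p = 0.320), and on the other side Atad3a, Atad3aos and Vwa1 had 0.22 ± 0.086, 0.24 ± 0.10 and 0.25 ± 0.11 (SE; limma, adjusted p = 0.418 for each). By contrast the 10 genes around Wdfy1 held none with an unadjusted p under 0.05, and those around Gabra2 and Plekhd1 held 1 each. Mid1 and G530011O06Rik, the last tested genes on X, moved in opposite directions. Around Pon1 itself, 31 tested genes were read, 11 before it on the chromosome and 20 after it. They held none that passed and 2 with an unadjusted p under 0.05, and their differences ran from -0.44 to 0.19.

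Lists of genes for cell types, pathways and stress responses held 1 gene that passed, Gabra2, and are therefore described by counts and medians beside those of all genes, of which 57.8% were higher and the median was 0.03 (0.01 without KO array 1). All 27 tested markers of brainstem and midbrain neurons were higher in Q192, with a median of 0.32, and 8 of the 27 had an unadjusted p under 0.05, against 7.43% of all genes that were higher with such a p. Their mean level was 7.75 to 8.13 in the Q192 arrays and 7.36 to 7.91 in the arrays labelled KO, which overlap. Hoxb3, a Hox gene of the hindbrain, was at 7.51, 7.40, 7.25 and 7.46 in Q192 and 7.05, 7.28, 7.02 and 7.11 in the arrays labelled KO, a difference of 0.29 ± 0.088 (SE; limma, adjusted p = 0.390). Hoxa2, of the same family, had a difference of 0.40 ± 0.15 (SE; limma, adjusted p = 0.418). Without KO array 1 the list had 24 of 27 higher and a median of 0.32. Its median was -0.05 at CPO 0.35 mg/kg/day and 0.30 at 0.5 mg/kg/day.

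Markers of oligodendrocytes and myelin were higher in 21 of 21 genes, with a median of 0.29. Their mean level was 10.95 to 11.13 in Q192, and in the arrays labelled KO it was 10.18 in array 1 and 10.80 to 10.98 in the other three. Sox10, a transcription factor of this lineage, had a difference of 0.39 ± 0.17 and Fa2h, which makes the hydroxylated fatty acids of myelin lipids, 0.61 ± 0.28 (SE; limma, adjusted p = 0.418 for both). Without KO array 1 the median was 0.12, with 20 of 21 higher. Markers of choroid plexus and ependyma, the tissue that makes cerebrospinal fluid, were lower in 11 of 13 genes, with a median of -0.34, and -0.18 without KO array 1. Kcne2, a potassium channel subunit of that tissue, had a difference of -0.63 ± 0.24 (SE; limma, adjusted p = 0.418), with a level of 8.89 in KO array 1. The part of these marker differences in the 15 genes was tested only as a covariate: 13 of the 15 passed with the brainstem marker mean in the fit, and 11 with the choroid plexus mean, which was added after the data were seen.

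The other neurons and glia of the cerebellum had medians between -0.08 and 0.16. Granule neuron markers were higher in 16 of 21 genes with a median of 0.08, which became -0.01 with 10 of 21 higher without KO array 4 and 0.15 without KO array 3. Purkinje cell markers were higher in 6 of 16 with a median of -0.08, which was -0.01 without KO array 1 or 3, -0.03 without Q192 array 2 and -0.14 without KO array 2 or 4. Their leading members by p were Dner, a Notch ligand, at 0.30 ± 0.21 and Pvalb, a calcium-binding protein, at -0.15 ± 0.12 (SE). Interneuron markers were higher in 12 of 14 genes with a median of 0.15, led by the glycine transporter Slc6a5 at 1.02 ± 0.38 and the vesicular transporter Slc32a1 at 0.54 ± 0.21 (SE; limma, adjusted p = 0.418 for both). Slc6a5 ranged from 9.41 to 10.14 in Q192 and from 7.90 to 9.57 in the arrays labelled KO, which overlap. Astrocyte markers were higher in 13 of 19 with a median of 0.11 (0.06 without KO array 1), and microglial markers in 16 of 20 with a median of 0.16.

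Genes close to the action of PON1 and of organophosphates did not pass. Ache, the acetylcholinesterase that oxons inhibit, was at 8.96, 8.98, 8.64 and 9.23 in Q192 and 7.80, 8.94, 8.60 and 8.56 in the arrays labelled KO. The groups overlapped, KO array 1 being the lowest, and the difference was 0.50 ± 0.22 (SE; limma, adjusted p = 0.418). Bche, the related butyrylcholinesterase, had 0.054 ± 0.15 (SE; limma, adjusted p = 0.878). Of 22 cholinergic genes tested, 16 were higher with a median of 0.11, and of 19 other serine hydrolases 14 were higher with a median of 0.10 (0.05 with 12 higher without KO array 1). Slc18a3, the vesicular acetylcholine transporter, which is also among the brainstem markers, had 0.66 ± 0.26 (SE; limma, adjusted p = 0.418).

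Among synaptic and stress genes the same held. The synaptic vesicle list had 23 of 33 genes higher, a median of 0.12 (0.20 without KO array 3), and 12 higher genes and 1 lower at an unadjusted p under 0.05, against 7.43% and 4.37% of all genes. It was led by Bin1 at 0.35 ± 0.11 and Rph3a at 0.34 ± 0.13 (SE; limma, adjusted p = 0.384 and 0.418). Heat shock and unfolded protein genes were lower in 22 of 32, with a median of -0.11. In this list Ddit3, the stress-induced transcription factor CHOP, was at 7.63, 7.64, 7.79 and 7.68 in Q192 and 8.05, 7.91, 8.03 and 8.06 in the arrays labelled KO. These did not overlap, and the difference of -0.32 ± 0.082 (SE; limma, adjusted p = 0.150) did not pass. Immediate early genes were higher in 25 of 30 with a median of 0.11, led by Egr1 at 0.35 ± 0.13 (SE). This became 20 of 30 with medians of 0.05 and 0.06 without KO array 1 and without Q192 array 1, and the median was 0.17 without Q192 array 4. Cytosolic ribosomal proteins were lower in 35 of 40 with a median of -0.06, and in 27 of 40 with a median of -0.02 without KO array 1.

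**Figure D5:**
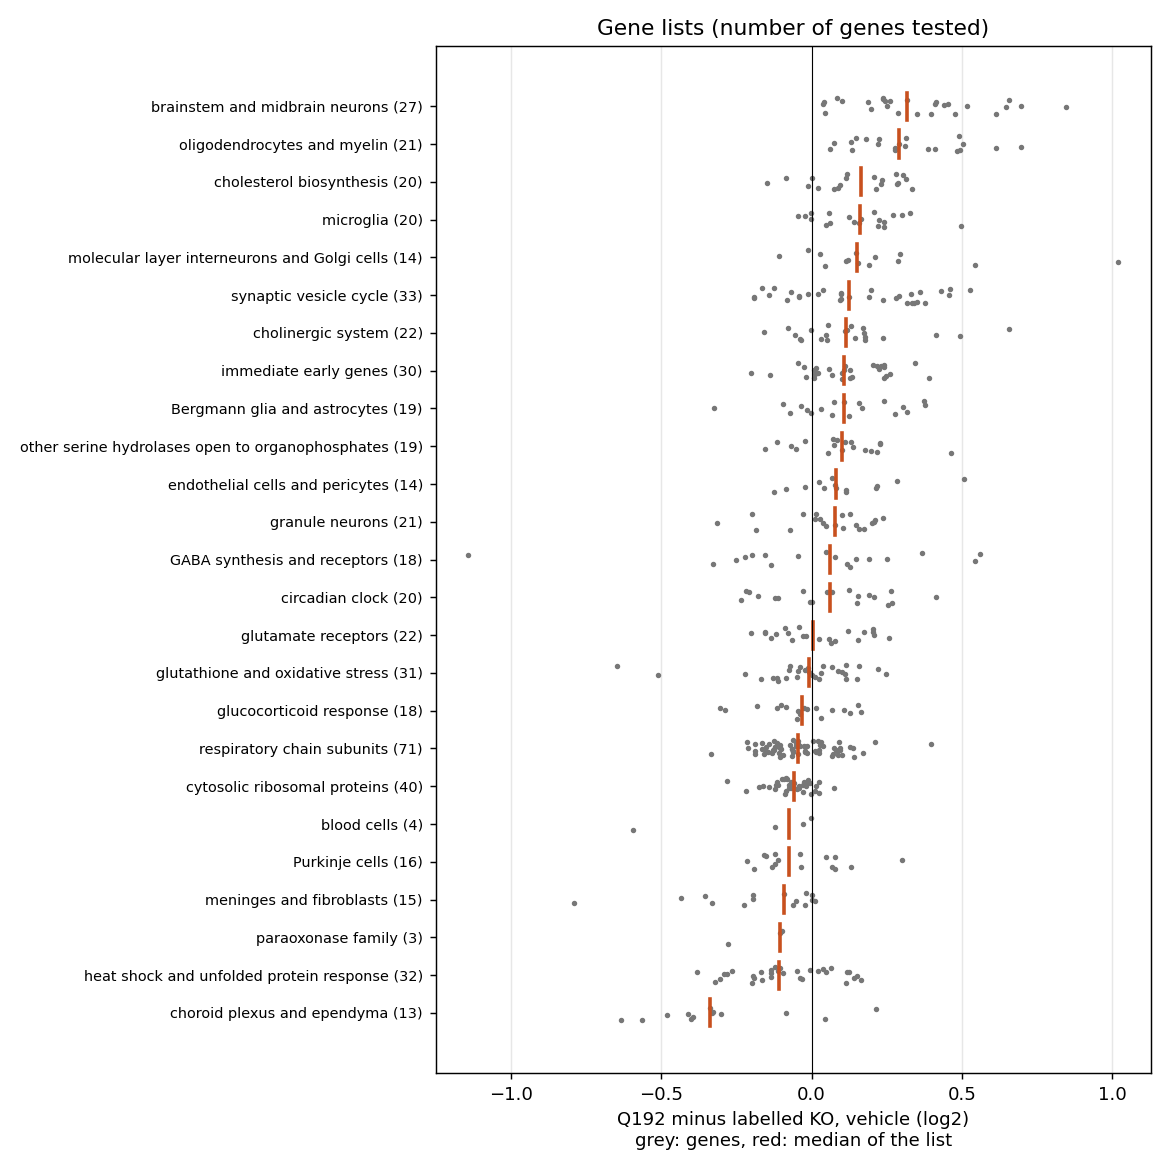
Log2 differences of Q192 minus labelled KO in vehicle (horizontal axis) for the tested genes of 25 lists (grey points, 1 a gene) with each list's median (red line); rows are ordered by the median and give the number of genes tested. Brainstem and oligodendrocyte markers lie at medians of 0.32 and 0.29 and choroid plexus markers at -0.34, and Gabra2 at -1.14 is the one gene of any list that passed.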

How the data were processed

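Total RNA of cerebellum was hybridised to Affymetrix Mouse Gene 1.0 ST arrays. The deposited log2 values were made by the authors with RMA in Affymetrix Expression Console 1.1, per the submitters' processing notes, which state neither the base of the logarithm nor the genome build; base 2 is taken from the method. Of 35557 probe sets, 21789 had 1 gene symbol in the platform annotation, 1621 several and 12147 none. Gene identifiers of 21698 were found in the RefSeq gene table and 0 symbols changed. Where several probe sets named a gene (999 genes) that of the highest mean level was kept, leaving 19938 genes. Genes with a mean at or under the 25th percentile (6.44) and 3 sex-linked genes were left out, so 14950 were tested. Medians of the 8 arrays ran from 7.40 to 7.47, and the number of arrays limits the precision.

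All 55 arrays in 12 groups were fitted with limma 3.58.1 in R 4.3.3, with array date (2 dates) as a covariate, a correlation of 0.131 between arrays of 1 label number (36 numbers), a variance trend and 42 residual degrees of freedom. Benjamini-Hochberg adjustment ran over all genes tested, with a threshold of 0.05. Log2 differences come from that fit, and means, SDs and ranges from the arrays. The fit was tested on simulated data. Named genes were all that passed, the paraoxonases, Ache, Bche and, of each of 25 lists, up to 2 members with the smallest p where none passed; genes named as neighbours on a chromosome and other list members were chosen after their values were seen. The members and lists were chosen with earlier results of these data known. Alternatives changed the covariates, the correlation, the arrays fitted, the filter, the probe sets, centring and weights. Array values differed between all pairs within a group, with a root mean square of at least 0.14.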

Additional observations from a re-analysis of the deposited data

Results flagged for a closer look

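In 130 groups of 4 arrays checked, 6 held an array whose gap to the nearest other, divided by the range of the group, was above 0.829; chance gives about 1 in 20. The array labelled KO replicate 1 accounted for 4 of them. Hspa4l was at 10.73 in that array and 10.44 to 10.49 in the other KO arrays (ratio 0.831). S100a9, a calcium-binding protein of neutrophils, was at 8.42 against 6.58 to 6.86 (0.845). Uqcrc1, a core subunit of respiratory complex III, was at 10.14 against 11.12 to 11.30 (0.845), and Grik4, a kainate receptor subunit, at 7.64 against 7.99 to 8.06 (0.832). KO replicate 4 was highest for Marchf1, at 8.21 against 7.71 to 7.76 (0.901). Q192 replicate 3 was lowest for Faah, which degrades endocannabinoids, at 8.70 against 8.88 to 8.90 (0.940).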

How the results depend on the processing

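Over 29 alternatives none of the 15 genes, which were picked on the same arrays, changed direction in any fit that tested it. The number of genes that passed in vehicle, 15, was within 1.5 times in 19 of them. It was 6 with the 8 arrays alone in the fit, 5 with a replicate block in the 8 arrays alone, 7 with the filter at the 50th percentile, 33 with array quality weights (14 of the 15 among them), 4 without KO arrays 1 and 4, 1 on array date 1 alone and 4 on date 2 alone, and it ran from 7 to 18 without each array in turn. Centring each array on its median gave 11, of which 4 were higher and 7 lower, against 8 and 7, and the first principal axis as a covariate gave 21, of which 15 were higher and 6 lower. At CPO 0.35 mg/kg/day the count of 10 became 19 without the number correlation and ran from 3 to 20 without single arrays, with 19 for KO replicate 5. At 0.5 mg/kg/day the count of 15 became 176 without the number correlation and 9 with the replicate block, and ran from 7 to 18 without single arrays of that comparison, with 200 without replicate 5 of KO at 0.35 mg/kg/day. The interaction count of 0 at 0.5 mg/kg/day ran from 0 to 1652, with 905 without that replicate, and was 0 throughout at 0.35 mg/kg/day. The replicate block gave 15 genes in vehicle, 14 of them shared. Q192 and KO arrays of 1 replicate number in their titles did not deviate together (correlations of -0.271, -0.185, -0.379 and 0.069). This gave no sign that the title numbers pair the samples, but deviations from means of 4 arrays cannot exclude it. The label numbers of the fitted correlation are others.

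Some genes that had not passed did so under an alternative. With array weights Hoxa2 (0.53), Ddit3 (-0.31) and Rpsa, a ribosomal protein (-0.31), passed with adjusted p of 0.0233, 0.0317 and 0.0327, and with brainstem markers as a covariate Rpsa (-0.41) passed with 0.0127. Others changed sign. With array weights Pon1 was at 0.0076. With the principal axis Pon1 was at 0.0256 and Dner at -0.0239. With brainstem markers as a covariate Bche was at -0.0600, Etv1 at 0.0068 and Pvalb at 0.0074. Without KO arrays 1 and 4 Pon1 was at 0.0735, Dner at -0.0116, Jund at -0.0128, Klf9 at -0.0056 and Srebf2 at -0.0228. Without single arrays, Camp ran from -0.1829 to 0.0008 (the latter without KO array 1) and Bche from -0.0466 (without Q192 array 2) to 0.1234. The cause was not tested for any of these.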

Other observations

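Some genes passed between Q192 and labelled KO in CPO arrays and not in vehicle, 8 in all. Gm1976 differed by 0.98 at 0.35 mg/kg/day and 1.70 at 0.5 mg/kg/day, and by 0.80 ± 0.23 (SE; limma, adjusted p = 0.320) in vehicle. Snapc1, a subunit of the complex that starts transcription of small nuclear RNAs, differed by 0.58 and 0.90, and by 0.51 ± 0.13 (SE; limma, adjusted p = 0.199) in vehicle. AI506816 differed by -1.03 and -1.12, and by -0.63 ± 0.23 (SE; limma, adjusted p = 0.418) in vehicle. These 3 had the same sign in all 3 treatments. Zkscan3, a zinc finger repressor, differed by 0.46 and 0.60 in the CPO arrays and by 0.088 ± 0.11 (SE) in vehicle. Gpr135, next to L3hypdh on chromosome 12, passed at 0.35 mg/kg/day only (0.31) and had 0.23 ± 0.068 (SE) in vehicle, while Tox4, Ttc33 and Slc16a14 passed at 0.5 mg/kg/day only and had vehicle differences between -0.11 and -0.015.

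Genes of glutathione and oxidative stress were higher in 15 and lower in 16 of 31, with a median of -0.01, and the members with the smallest p were lower in Q192 without passing. Slc7a11, the cystine importer, was at 8.79, 9.42, 9.37 and 8.89 in Q192 and 10.13, 9.41, 9.70 and 9.75 in the arrays labelled KO, which overlap, with a difference of -0.65 ± 0.19 (SE; limma, adjusted p = 0.366). Gpx8, a peroxidase of the endoplasmic reticulum, had a difference of -0.51 ± 0.15 (SE; limma, adjusted p = 0.366). Cholesterol synthesis genes were higher in 17 of 20 with a median of 0.16, led by Insig1, a sterol sensor partner, at 0.28 ± 0.14 (SE), and the median was 0.07 without KO array 1. Cldn5, the tight junction protein of brain endothelium, had the smallest p of the vascular list, at 0.51 ± 0.16 (SE; limma, adjusted p = 0.404), and was at 8.12 in KO array 1 and 8.72 to 8.88 in the other KO arrays against 9.02 to 9.26 in Q192.

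The remaining lists held no gene that passed. Vascular markers were higher in 11 of 14 genes (median 0.08, and 0.03 without Q192 array 2), circadian clock genes in 12 of 20 (0.06), glutamate receptors in 11 of 22 (0.0034) and glucocorticoid response genes in 7 of 18 (-0.03). Without single arrays the clock median ran from 0.01 (KO array 1) to 0.10 (KO array 3), that of glutamate receptors from -0.01 (Q192 array 1) to 0.06 (KO array 3), that of glucocorticoid genes from -0.11 (Q192 array 4) to -0.0011 (Q192 array 3) and that of the glutathione list from -0.03 (Q192 array 2) to 0.01 (Q192 array 3). Meningeal markers were higher in 3 of 15 (-0.09, from -0.20 without KO array 4 to -0.04 without KO array 1), led by Ogn, a small proteoglycan, at -0.79 ± 0.31 (SE; limma, adjusted p = 0.418), and the 4 tested blood cell markers were all lower (-0.07, and -0.12 without KO array 3 or 4), of which 3 were higher without KO array 1.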
